A study of Mus musculus with 6 samples.

Results

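Branched-chain, lysine and propionate breakdown is represented here by 10 genes: Bckdha, Bckdhb, Dbt, Ivd, Hibch, Hibadh, Aldh6a1, Pcca, Pccb and Aass. They were taken by gene symbol from the array rows annotated with a single gene, and all 10 were found among the 18820 genes measured. Hibadh had 3 rows, of which the one with the highest mean over the arrays was used, and the other 9 genes had 1 row each. The study measured RNA from snap-frozen liver of 2-month-old C57BL6 mice on Affymetrix arrays. There were 4 mice of genotype Pcyt2+/-, called knock-out in the sample titles and numbered 1 to 4, and 2 wild type mice, numbered 3 and 4. Both groups share the C57BL6 background, the age and the tissue. The enzyme encoded by Pcyt2 forms CDP-ethanolamine, a precursor of the membrane lipid phosphatidylethanolamine, and Pcyt2+/- mice keep a wild type copy. How the Pcyt2 allele was made, and whether the mice were male or female, fed or fasted, is not stated in the labels.

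Leucine, isoleucine and valine first lose their amino group to the branched-chain aminotransferases and are then oxidised in mitochondria by the branched-chain keto acid dehydrogenase complex, the committed step of the pathway. Separate routes follow: leucine carbon ends as acetyl-CoA and acetoacetate, valine carbon as propionyl-CoA, and isoleucine carbon as both acetyl-CoA and propionyl-CoA. Propionyl-CoA is carboxylated and rearranged to succinyl-CoA, which enters the citric acid cycle. Liver has little branched-chain aminotransferase but a large capacity to oxidise the keto acids that reach it in blood, and it is a main site of lysine breakdown through saccharopine.

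Values are log2 signals, and differences are Pcyt2+/- minus wild type. The 6 array medians lay between 4.397 and 4.403, and 4.21% of genes had a mean above 5, so most genes sat in a narrow band near the median. Of the 10 genes, Hibadh, Aldh6a1 and Aass had a mean above 5, while Bckdhb lay at the array medians and Hibch and Pcca below them. Pcyt2 itself had 4.638, 4.657, 4.669 and 4.604 in Pcyt2+/- livers, against 4.887 and 4.796 in wild type livers, a difference of -0.20 (SE 0.028, limma, adjusted p = 0.264) with groups that did not overlap. On the deposited signal wild type was 1.15-fold higher. With the median of each array taken off its signals before the logarithm, Pcyt2 differed by -1.0 (limma, adjusted p = 0.0555 over 3248 genes). The wild type signal left after this was 2.0-fold higher. The size of such differences and folds depends on how much is taken off. Whether the array median is background was not tested. All 9 hepatocyte markers measured had means between 5.10 and 12.29. Their differences ran from -0.25 to 0.084, with a lower mean for 5 and a higher mean for 4. Limma called 0 of the 9 at an adjusted p under 0.05. The 49 markers of other cell types measured had means between 4.21 and 5.08, 1 of them above 5. The sum of their log2 values ran from 219.0 to 219.8 in Pcyt2+/- and was 219.3 on both wild type arrays. Opposite changes of unlike cell types can cancel in this sum, so it cannot show whether composition differed. Groups were separate with Pcyt2+/- above for 5 of the 49 and below for 1, against 5.67% and 7.17% of all genes. At an unadjusted p under 0.05 by limma 2 were higher and 0 lower, against 1.86% and 3.44%. In whole liver, fewer cells of a type and less RNA per cell cannot be told apart.

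Pcyt2+/- and wild type livers were compared to ask which of these steps differ in expression when Pcyt2 is deficient. No gene of the 10 passed the test. Aass, the entry enzyme of lysine breakdown, Bckdha, a subunit of the branched-chain keto acid dehydrogenase, and Pccb, a subunit of propionyl-CoA carboxylase, had lower values on every Pcyt2+/- array than on either wild type array. The other 7 genes had overlapping groups. Aass had the largest difference of the 10, at -0.23 on the log2 scale, followed by Bckdha at -0.093. Limma with Benjamini-Hochberg adjustment over 18820 genes called 0 of the 10 at an adjusted p under 0.05 (adjusted p from 0.662 to 0.997), and it called 0.0% of all genes.

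At an unadjusted p under 0.05 limma gave 3 of the 10 as lower and 0 as higher, where 3.44% of all genes were lower, 1.86% higher and 5.3% either at that level. Groups did not overlap, with Pcyt2+/- below, for the same 3 of 10, against 7.17% of all genes. Separate groups with Pcyt2+/- above were found for 0 of the 10, against 5.67% of all genes, and in either direction 12.8% of all genes had them. Means were lower in Pcyt2+/- for 7 of the 10, against 51.9% of all genes, and the median difference was -0.015, against -0.00073 over all genes. For genes with a mean above 5 the background was different: 14.6% were lower at an unadjusted p under 0.05, 62.4% had a lower mean and the median difference was -0.020. Of the 3 members in that range 1 was lower at this level, and all 3 had a lower mean. The 1 was Aass, whose means were 4.97 in Pcyt2+/- and 5.20 in wild type. Its wild type values brought it into this range, so its count there follows in part from the filter. Of the 7 dimmer members 2 were lower at an unadjusted p under 0.05, against 2.95% of all genes with a mean of 5 or less, and the same 2 had groups that did not overlap, against 6.82%.

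**Figure D1:**
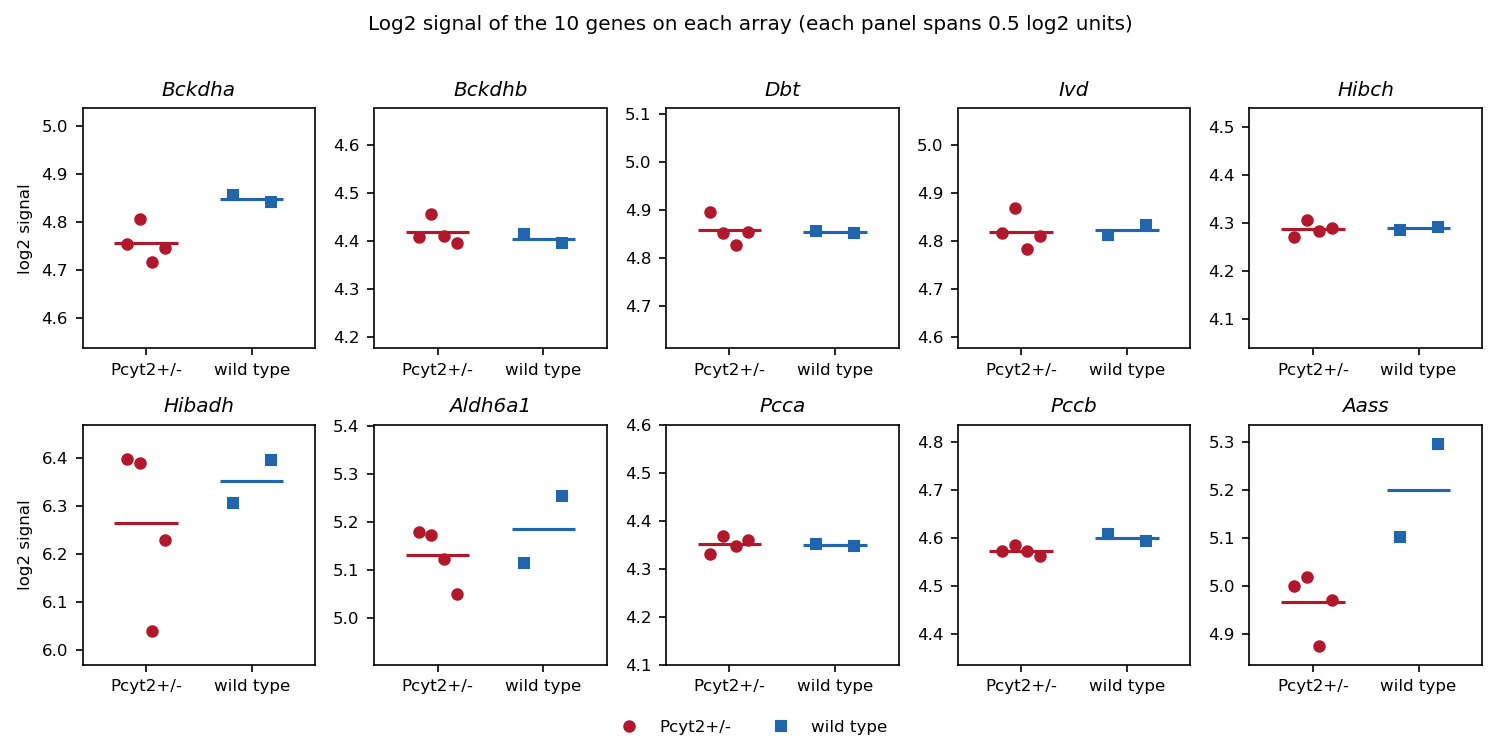
Log2 signal (vertical axis) of each of the 10 genes on the 4 Pcyt2+/- arrays (red circles) and the 2 wild type arrays (blue squares), with group means as horizontal lines and the same span of log2 units in every panel. For Aass, Bckdha and Pccb every red circle lies below both blue squares, while the groups overlap in the other 7 panels.

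The 250 bases before the transcription start are shown for Aass, Bckdha and Pccb, because these are the members whose groups did not overlap. The sequences are those of RefSeq on GRCm38.p6, each on the minus strand and written 5′ to 3′. The windows lie at chr6:23132987-23133236 for Aass, chr7:25658762-25659011 for Bckdha and chr9:101034885-101035134 for Pccb. Capitals mark matches, on either strand, to 6 motifs: CCAAT (the box of that name), GGGCGG (the GC box), CACCC (bound by KLF factors), AGGTCA (an element of nuclear receptor sites), TGACGT (part of the cAMP response element) and CACGTG (the E-box).
Aass: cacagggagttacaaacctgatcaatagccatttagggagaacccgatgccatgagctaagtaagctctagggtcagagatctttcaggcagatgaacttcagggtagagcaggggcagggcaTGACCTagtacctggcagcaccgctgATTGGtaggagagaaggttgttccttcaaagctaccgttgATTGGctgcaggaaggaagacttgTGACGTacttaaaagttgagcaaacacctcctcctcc
Bckdha: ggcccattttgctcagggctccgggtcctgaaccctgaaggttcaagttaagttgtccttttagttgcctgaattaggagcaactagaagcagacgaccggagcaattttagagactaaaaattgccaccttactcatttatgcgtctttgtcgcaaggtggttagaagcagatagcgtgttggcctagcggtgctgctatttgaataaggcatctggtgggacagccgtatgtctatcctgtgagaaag
Pccb: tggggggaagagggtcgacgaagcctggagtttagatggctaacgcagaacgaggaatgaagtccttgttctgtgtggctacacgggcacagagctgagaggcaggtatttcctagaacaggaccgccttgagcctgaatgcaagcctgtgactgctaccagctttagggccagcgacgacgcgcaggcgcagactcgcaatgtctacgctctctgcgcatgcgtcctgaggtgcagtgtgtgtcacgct
The Aass window held 2 matches to the first motif, 1 to the nuclear receptor element and 1 to the cAMP response element part, some of them on the opposite strand, and the Bckdha and Pccb windows held none of the 6 motifs. Among all 32851 promoter windows of this length, 33.8% held CCAAT, 32.7% GGGCGG, 52.0% CACCC, 14.0% AGGTCA, 6.5% TGACGT and 6.0% CACGTG. RefSeq windows were found for 9 members, 12 windows in all. Among these CCAAT stood in 8, CACCC in 5, GGGCGG and AGGTCA in 4 each, TGACGT in 1 and CACGTG in 0.

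The branched-chain keto acid dehydrogenase is built from a decarboxylase (E1, of alpha subunits from Bckdha and beta subunits from Bckdhb), a lipoylated transacylase core (E2, from Dbt) and a dihydrolipoyl dehydrogenase (E3, from Dld) that it shares with other complexes. Bckdha (probe set 10561063) had 4.754, 4.806, 4.717 and 4.745 in Pcyt2+/- livers, against 4.856 and 4.841 in wild type livers. Each Pcyt2+/- liver was below both wild type livers. The means were 4.76 ± 0.037 (SD, n = 4) in Pcyt2+/- and 4.85 ± 0.011 (SD, n = 2) in wild type, a difference of -0.093 (SE 0.023, 95% interval -0.15 to -0.038, limma, adjusted p = 0.662). The two-sided exact permutation p was 0.0667, the smallest of the 15 possible splits of the arrays, which means that 0.05 is out of its reach. The wild type signal was 1.07-fold higher as deposited. With the array medians taken off in that way, the difference was -0.40 (limma, adjusted p = 0.436 over 3248 genes). The wild type signal left was then 1.32-fold higher, a size that depends on the amount taken off.

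Bckdhb (probe set 10587534) had 4.409, 4.458, 4.411 and 4.397 in Pcyt2+/- livers, against 4.415 and 4.396 in wild type livers. The groups overlapped, with Pcyt2+/- replicate 2 highest, and the difference was 0.014 with an interval of -0.030 to 0.057. Dbt (probe set 10495549) had 4.896, 4.852, 4.826 and 4.854 in Pcyt2+/- livers, against 4.855 and 4.852 in wild type livers. Its wild type values lay inside the Pcyt2+/- range, and the difference was 0.0034 with an interval of -0.041 to 0.048. Dld, the E3 subunit, had a mean of 4.31, below the array medians, and a difference of -0.0020 (SE 0.0098).

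The gap between log2 values on each array was taken for 5 pairs of enzymes or subunits. The gap of Bckdhb over Bckdha was -0.345, -0.348, -0.306 and -0.348 in Pcyt2+/- livers, against -0.441 and -0.445 in wild type livers. The groups did not overlap and differed by 0.11 (SE 0.015). Bckdhb lay at the array medians and itself differed by 0.014, so this gap largely restates the Bckdha difference and no test is read from it. The gap of Dbt over Bckdha was 0.142, 0.046, 0.109 and 0.109 in Pcyt2+/- livers, against -0.001 and 0.011 in wild type livers. Its difference was 0.097 (SE 0.030), with groups that did not overlap (two-sided exact permutation p = 0.0667, 0.167 adjusted over 5 pairs), and 0.41 with the array medians taken off. Both gaps share the Bckdha values and are not independent of each other. Dbt itself differed by 0.0034 and Bckdha by -0.093, so the gap of Dbt over Bckdha also largely restates the Bckdha difference. Its p is no separate support. The gap of Dbt over Bckdhb overlapped between groups and differed by -0.010 (SE 0.032), a sign that turned without Pcyt2+/- replicate 2.

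**Figure D2:**
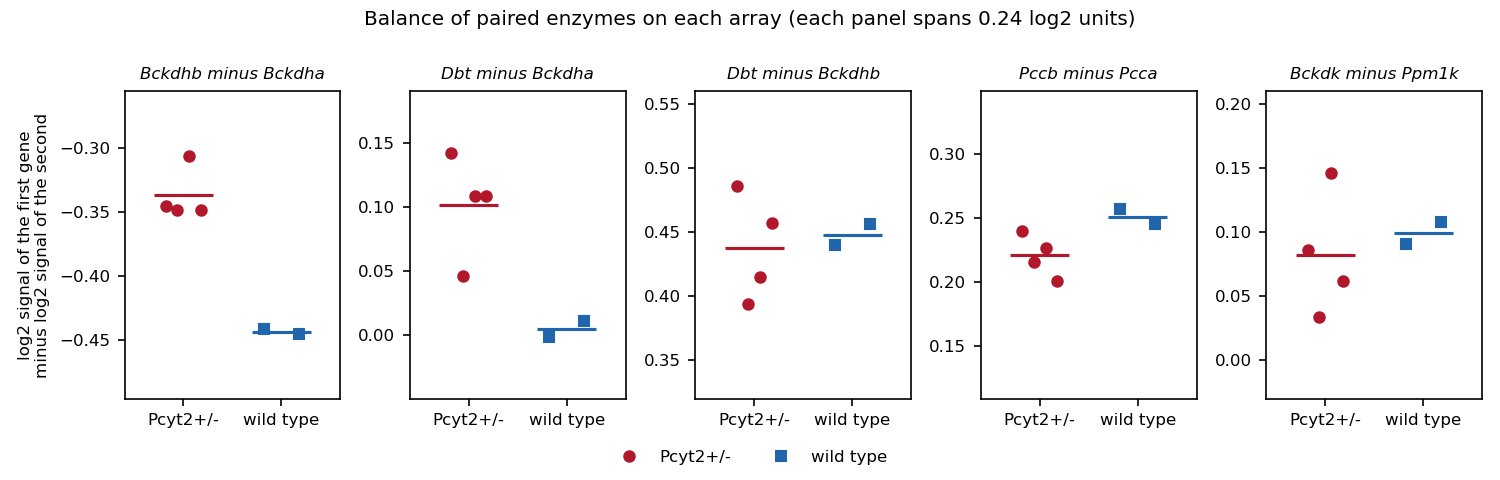
Log2 signal of the first gene minus that of the second (vertical axis) on the 4 Pcyt2+/- arrays (red circles) and the 2 wild type arrays (blue squares), with group means as lines and the same span in every panel. The groups are separate for Bckdhb minus Bckdha and for Dbt minus Bckdha, are separate by a small margin for Pccb minus Pcca, and overlap for Dbt minus Bckdhb and Bckdk minus Ppm1k.

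Activity of the complex is set by phosphorylation of the E1 alpha subunit: the kinase encoded by Bckdk turns it off and the phosphatase encoded by Ppm1k turns it on. Bckdk had 4.501, 4.482, 4.522 and 4.523 in Pcyt2+/- livers, against 4.491 and 4.522 in wild type livers, a difference of 0.00049 (SE 0.016). Ppm1k had 4.415, 4.448, 4.377 and 4.461 in Pcyt2+/- livers, against 4.400 and 4.414 in wild type livers, a difference of 0.018 (SE 0.024). The groups overlapped for both genes. The gap of Bckdk over Ppm1k averaged 0.082 ± 0.047 (SD, n = 4) in Pcyt2+/- and 0.10 ± 0.012 (SD, n = 2) in wild type, a difference of -0.018 (SE 0.036). Upstream of the complex, the aminotransferases Bcat1 and Bcat2 had differences of -0.016 and 0.0042. Slc25a44, a mitochondrial carrier of branched-chain amino acids, had one of -0.0081. The 95% interval included 0 for each of these genes, and Bcat1, with a mean of 4.41, lay at the array medians.

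Klf15, a transcription factor that drives amino acid breakdown genes including those of branched-chain amino acids, was measured beside them. It had 4.862, 4.861, 4.858 and 4.892 in Pcyt2+/- livers, against 4.917 and 4.975 in wild type livers, and the groups did not overlap. The difference was -0.077 (SE 0.018, limma, adjusted p = 0.646), and -0.049 without wild type replicate 4.

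In the leucine branch, Ivd encodes isovaleryl-CoA dehydrogenase, which follows the complex. Ivd (probe set 10474836) had 4.816, 4.870, 4.783 and 4.811 in Pcyt2+/- livers, against 4.813 and 4.833 in wild type livers. The Pcyt2+/- values lay on both sides of the wild type ones, and the difference was -0.0032 with an interval of -0.058 to 0.052. The next enzyme, methylcrotonyl-CoA carboxylase, has an alpha subunit from Mccc1 and a beta subunit from Mccc2. Mccc1 had 4.368, 4.382, 4.368 and 4.398 in Pcyt2+/- livers, against 4.344 and 4.351 in wild type livers, a difference of 0.032 (limma, adjusted p = 0.913). Mccc2 had 4.490, 4.472, 4.498 and 4.500 in Pcyt2+/- livers, against 4.517 and 4.516 in wild type livers, a difference of -0.026 (limma, adjusted p = 0.936). The groups did not overlap for either subunit, with opposite signs and values near the array medians. Auh, the hydratase of this branch, had a difference of -0.019.

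The valine branch holds Hibch, which removes CoA from 3-hydroxyisobutyryl-CoA, Hibadh, which oxidises the 3-hydroxyisobutyrate set free, and Aldh6a1, the methylmalonate semialdehyde dehydrogenase that makes propionyl-CoA. Hibch (probe set 10346235) had 4.271, 4.307, 4.284 and 4.290 in Pcyt2+/- livers, against 4.286 and 4.292 in wild type livers. These values lay below the array medians and overlapped, and the difference was -0.00098 with an interval of -0.030 to 0.028. Hibadh (probe set 10544815) had 6.398, 6.388, 6.038 and 6.229 in Pcyt2+/- livers, against 6.305 and 6.396 in wild type livers. Pcyt2+/- replicates 1 and 2 lay beside the higher wild type array, and Pcyt2+/- replicate 3 was the lowest of all. The means were 6.26 ± 0.17 (SD, n = 4) in Pcyt2+/- and 6.35 ± 0.064 (SD, n = 2) in wild type, a difference of -0.087 (SE 0.10), which became -0.012 without Pcyt2+/- replicate 3 and -0.029 after quantile normalization. The other Hibadh rows were dim, with means of 4.32 and 4.04, and had differences of 0.030 and 0.0027. In a fit of every row, the first had an unadjusted p = 0.0478 (SE 0.012, limma, adjusted p = 0.959). The row used had an unadjusted p = 0.43 in that limma fit. The rows of this gene did not share a direction, and their mean differed by -0.018.

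Aldh6a1 (probe set 10401473) had 5.179, 5.172, 5.123 and 5.050 in Pcyt2+/- livers, against 5.115 and 5.254 in wild type livers. The wild type values enclosed 3 of the 4 Pcyt2+/- values. The difference was -0.054 (SE 0.048, limma, adjusted p = 0.964), which was -0.027 after quantile normalization and turned to 0.016 without wild type replicate 4. Acad8, the isobutyryl-CoA dehydrogenase of this branch, had a difference of -0.0051, and Echs1, a hydratase of the valine and isoleucine branches, had the same value.

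In the isoleucine branch, Acadsb, the short/branched-chain acyl-CoA dehydrogenase, had a difference of 0.0078. Hsd17b10, the dehydrogenase that follows the hydratase, had 5.315, 5.259, 5.056 and 5.161 in Pcyt2+/- livers, against 5.313 and 5.338 in wild type livers, a difference of -0.13 (SE 0.066) and groups that overlapped through Pcyt2+/- replicate 1. It was -0.081 without Pcyt2+/- replicate 3. Acat1, the mitochondrial thiolase that splits off propionyl-CoA and also takes part in ketone body synthesis, had 6.003, 6.040, 5.856 and 6.070 in Pcyt2+/- livers, against 6.158 and 6.241 in wild type livers. All Pcyt2+/- values were below both wild type values, and the difference was -0.21 (SE 0.058), and the wild type signal was 1.15-fold higher (limma, adjusted p = 0.759).

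Propionyl-CoA from these branches is carboxylated by propionyl-CoA carboxylase, whose biotin-carrying alpha subunit comes from Pcca and whose beta subunit comes from Pccb. Pcca (probe set 10417183) had 4.332, 4.368, 4.347 and 4.361 in Pcyt2+/- livers, against 4.352 and 4.348 in wild type livers. The wild type values lay within the Pcyt2+/- range, and the difference was 0.0024 with an interval of -0.028 to 0.033. Pccb (probe set 10596053) had 4.572, 4.584, 4.573 and 4.562 in Pcyt2+/- livers, against 4.608 and 4.593 in wild type livers. Its groups did not overlap, with Pcyt2+/- replicate 2 just below wild type replicate 4. The difference was -0.028 (SE 0.011, 95% interval -0.053 to -0.0017, limma, adjusted p = 0.913). The gap of Pccb over Pcca differed by -0.030 (SE 0.013), which is close to the difference of Pccb itself, since Pcca differed by 0.0024. Pcca lay below the array medians.

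After the carboxylase, Mcee, the methylmalonyl-CoA epimerase, had 5.767, 5.694, 5.521 and 5.630 in Pcyt2+/- livers, against 5.645 and 5.804 in wild type livers, with groups that overlapped. Its difference of -0.071 was -0.0013 after quantile normalization and turned to 0.0083 without wild type replicate 4. Mmut, the cobalamin-dependent mutase that makes succinyl-CoA, had 4.638, 4.637, 4.638 and 4.640 in Pcyt2+/- livers, against 4.636 and 4.683 in wild type livers. Wild type replicate 3 lay below the Pcyt2+/- values, and the difference of -0.021 was 0.0022 without wild type replicate 4. The cobalamin handling genes Mmaa, Mmab and Mmachc had differences of -0.0090, -0.0061 and -0.035. The biotin genes Hlcs and Btd, for attaching and recycling the carboxylase cofactor, had -0.021 and -0.031. Hlcs and Mmaa, with means of 4.33 and 4.39, lay below the array medians. All 7 neighbours of the propionate step had a lower mean in Pcyt2+/-, as had 51.9% of all genes and 62.4% of those with a mean above 5. Only 1 of the 7 had a mean above 5. Of the 7, 0 were lower or higher at an unadjusted p under 0.05 by limma. The sign turned without some 1 array for Mcee, Mmut, Mmaa and Mmab.

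Lysine breakdown opens with Aass, a bifunctional mitochondrial enzyme that joins lysine to 2-oxoglutarate as saccharopine and then splits it. Aass (probe set 10543333) had 5.0, 5.018, 4.875 and 4.970 in Pcyt2+/- livers, against 5.102 and 5.295 in wild type livers. Every Pcyt2+/- value was below both wild type values, and the wild type values were farther apart than the Pcyt2+/- values. The means were 4.97 ± 0.064 (SD, n = 4) in Pcyt2+/- and 5.20 ± 0.14 (SD, n = 2) in wild type, a difference of -0.23 (SE 0.059, 95% interval -0.37 to -0.093), and the wild type signal was 1.18-fold higher (limma, adjusted p = 0.662). The two-sided exact permutation p was 0.0667, the smallest possible here. The difference was -0.14 without wild type replicate 4 and -0.33 without wild type replicate 3. With the array medians taken off in the same way it was -0.63, with the wild type signal 1.54-fold higher (limma, adjusted p = 0.328 over 3248 genes).

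Further along the lysine route, Aadat, the 2-aminoadipate aminotransferase, had 5.029, 5.050, 5.022 and 5.271 in Pcyt2+/- livers, against 4.998 and 5.174 in wild type livers, with a difference of 0.0073. The 2-oxoadipate dehydrogenase that follows takes its E1 from Dhtkd1 and its E2 from Dlst, which also serves the citric acid cycle. Dlst had 4.554, 4.540, 4.506 and 4.556 in Pcyt2+/- livers, against 4.609 and 4.632 in wild type livers. These groups did not overlap, and the difference of -0.082 (SE 0.017) had the lowest adjusted p of the 39 genes described here (limma, adjusted p = 0.511). Dhtkd1 had a difference of -0.044 (SE 0.023) and overlapping groups. Gcdh, the glutaryl-CoA dehydrogenase, had one of -0.064 (SE 0.051), which was -0.033 after quantile normalization. Slc25a21, the mitochondrial carrier of 2-oxoadipate, had one of -0.0029 and a mean of 4.32, below the array medians.

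In the side route through pipecolate, Pipox, the peroxisomal pipecolate oxidase that also oxidises sarcosine, had 4.928, 4.900, 4.817 and 4.865 in Pcyt2+/- livers, against 4.977 and 4.948 in wild type livers. All Pcyt2+/- values were below both wild type values, with a difference of -0.085 (SE 0.030, limma, adjusted p = 0.872). Crym, a ketimine reductase, had a difference of 0.0032.

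The neighbour list held 31 further genes of these routes, of which 29 were measured. Limma called 0 of the 29 at an adjusted p under 0.05. At an unadjusted p under 0.05, 4 were lower (Acat1, Klf15, Dlst and Pipox), 1 was higher (Mccc1) and 24 were neither, where 3.44% of all genes were lower and 1.86% higher (14.6% lower among genes with a mean above 5). A lower mean was found for 22 of the 29, against 51.9% of all genes and 62.4% of those with a mean above 5, with a median difference of -0.016. The groups did not overlap for 6 below, Mccc2 and Mmachc besides those 4, and for 1 above, against 7.17% and 5.67% of all genes (15.3% below among genes with a mean above 5). Of the 29, 5 had a mean above 5 and 24 a mean of 5 or less. Among the 24, 3 were lower at an unadjusted p under 0.05 by limma, against 2.95% of all genes in that range. Groups were separate with Pcyt2+/- below for 5 of the 24, against 6.82%. Of the neighbours, 10 could be fitted with the array medians taken off, and none was called. Their differences were -0.30 for Acat1 and Hsd17b10, -0.29 for Pipox, -0.26 for Klf15 and Dhtkd1, -0.13 for Gcdh and Mmut, -0.12 for Mcee, 0.02 for Aadat and 0.048 for Crym. By route the median was -0.0051 for 15 genes of branched-chain breakdown, -0.021 for 7 of the propionate step and -0.044 for 7 of lysine breakdown. The genes of a route share arrays, so these medians carry no test.

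**Figure D3:**
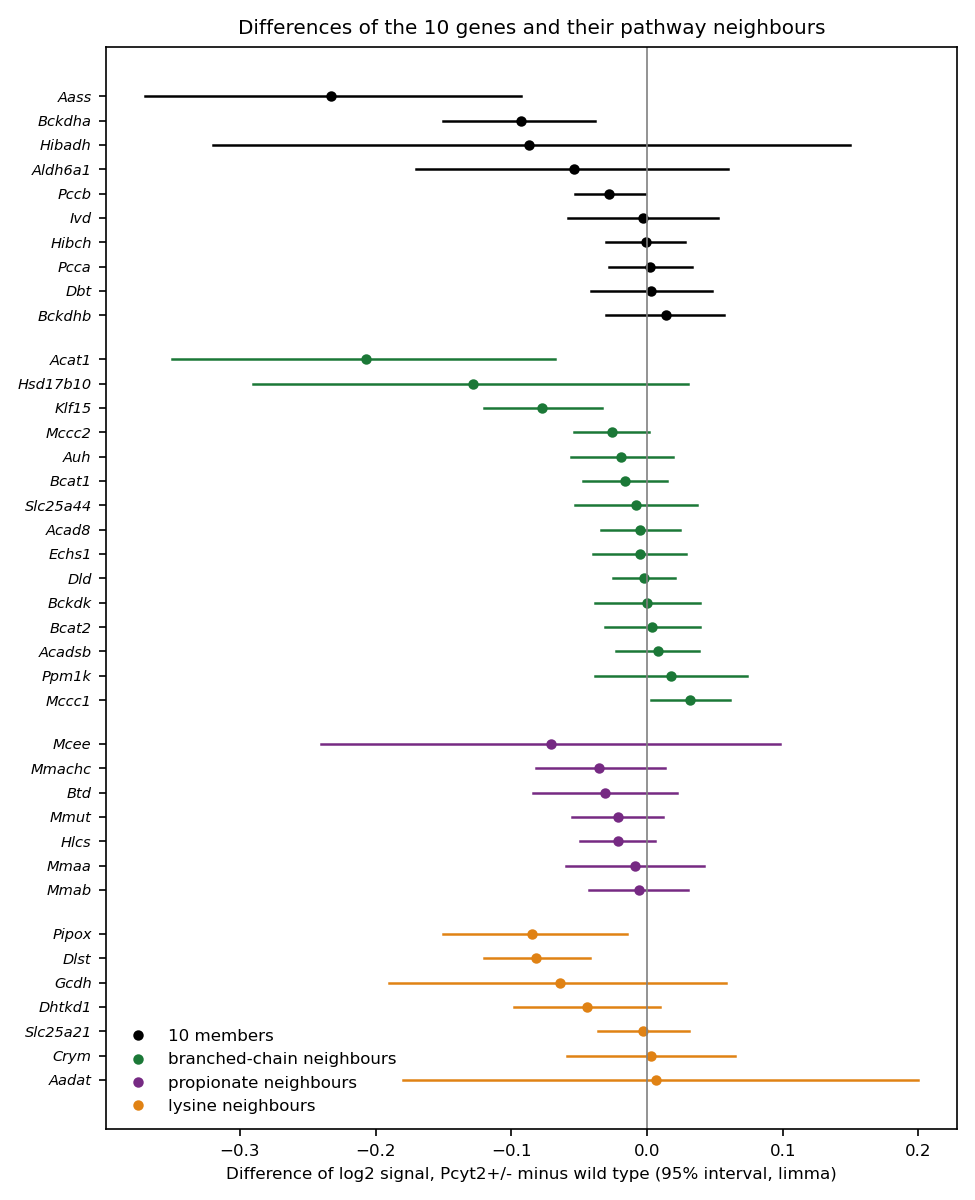
Difference of log2 signal, Pcyt2+/- minus wild type (horizontal axis), with 95% intervals from limma, for the 10 members (black) and 29 neighbours of the branched-chain (green), propionate (purple) and lysine (orange) routes. Aass and Acat1 lie farthest to the left at -0.23 and -0.21, and most other points lie close to 0.

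Values of the members also varied within genotype. Pcyt2+/- replicate 3 was the lowest of the 6 arrays for 5 members (Bckdha, Dbt, Ivd, Hibadh and Aass), where it was the lowest for 17.6% of all genes and for 42.6% of genes with a mean above 5. It was also the lowest for 12 of the 29 neighbours, among them Acat1, Hsd17b10 and Mcee. Pcyt2+/- replicate 2 was the highest array for 4 members (Bckdhb, Ivd, Hibch and Pcca) and the lowest for none of the 10. Over all 18820 genes it was the highest for 3111 and the lowest for 2927. The median deviation of Pcyt2+/- replicate 3 from the mean of the 6 arrays was -0.055 over genes with a mean above 5, -0.028 over the members and 0.00016 over all genes. Without it Bckdha differed by -0.080 and Aass by -0.20. The number of members with a lower mean was 5 without Pcyt2+/- replicate 3 and 4 without wild type replicate 4.

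**Figure D4:**
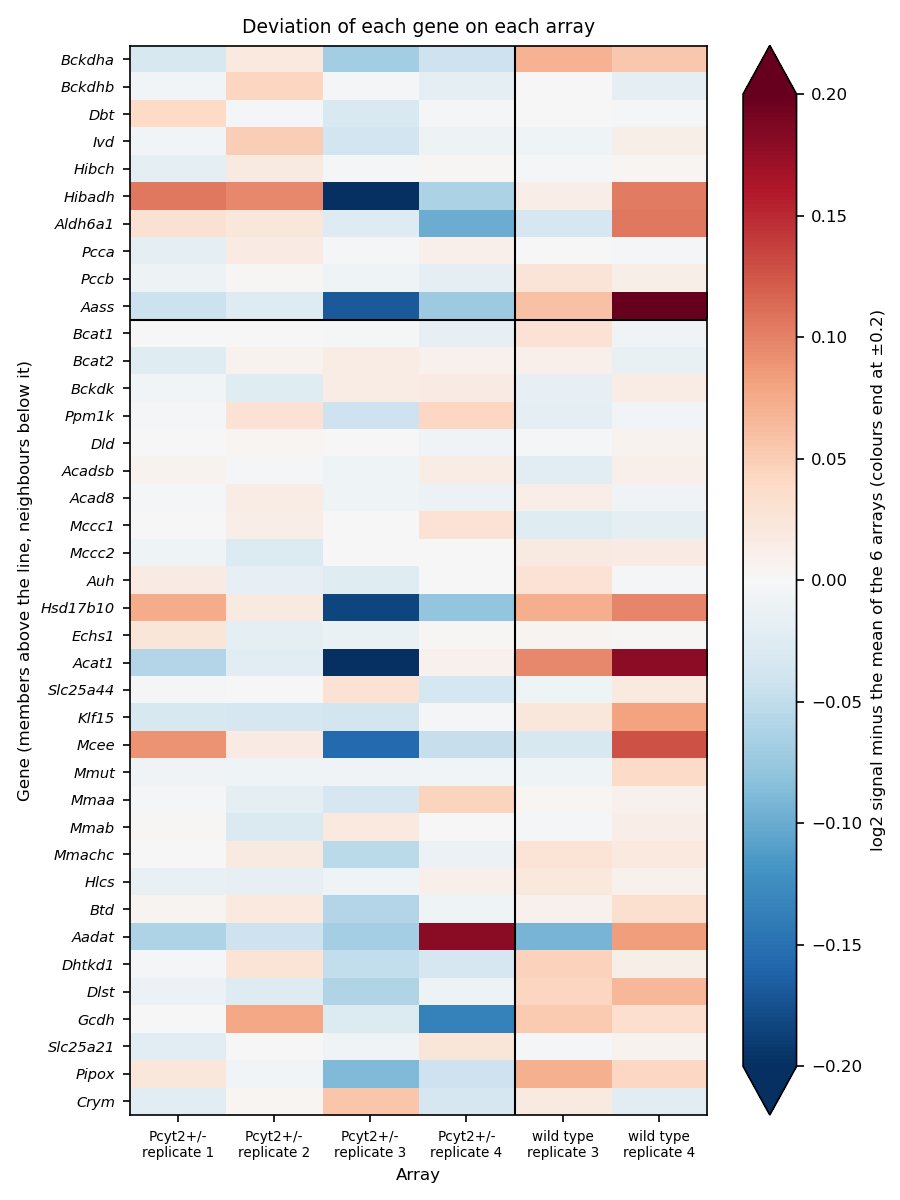
Log2 signal of each gene minus its mean over the 6 arrays (colour), with arrays in columns, Pcyt2+/- left of the vertical line and wild type right of it, and the 10 members above the 29 neighbours. The column of Pcyt2+/- replicate 3 is darkest blue for Hibadh, Aass, Acat1, Hsd17b10 and Mcee, and the column of wild type replicate 4 is darkest red for Aass and Acat1.

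Leaving out each array in turn moved the members by different amounts. Bckdha stayed between -0.11 and -0.080 and Pccb between -0.035 and -0.020 in the 6 fits. Aass stayed below 0 in all 6, between -0.33 and -0.14. Hibadh and Aldh6a1 ranged from -0.13 to -0.012 and from -0.12 to 0.016. The 5 members with the smallest differences, Bckdhb, Dbt, Ivd, Hibch and Pcca, stayed between -0.020 and 0.023. No fit called any member.

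**Figure D5:**
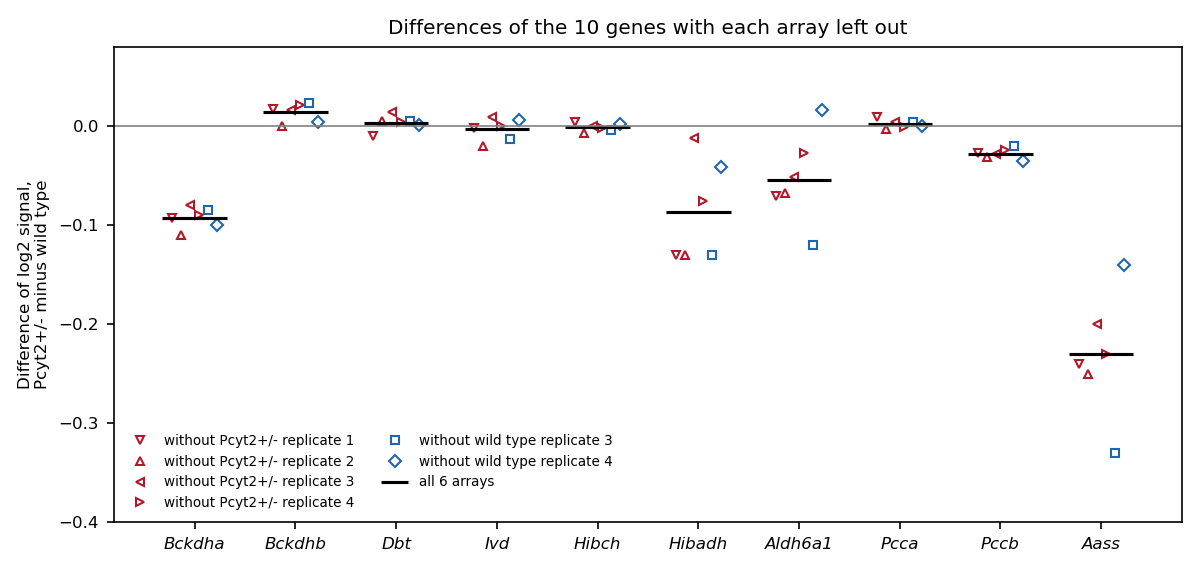
Difference of log2 signal, Pcyt2+/- minus wild type (vertical axis), of each of the 10 genes with all 6 arrays (black lines) and with 1 array left out (red symbols for a Pcyt2+/- array, blue for a wild type array). Bckdha, Pccb, Aass and Hibadh stay below 0 throughout, the symbols of Hibadh and Aldh6a1 spread most widely beside those of Aass, and Bckdhb, Dbt, Ivd, Hibch and Pcca stay near 0.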

How the data were processed

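RNA from 6 mouse livers was measured on 1 array each. The authors deposited log2 values per probe set made with RMA, per the submitters' processing notes. Neither its version nor a genome build is named in the labels. The table held 28996 probe sets with 0 missing values, of which 21218 had 1 gene symbol in the platform annotation, 1881 had several and 5897 were unnamed here. Of those with 1 symbol, 21185 matched the RefSeq table of GRCm38.p6 by gene identifier, with 0 symbols changed. The brightest row stood for a gene, which gave 18820 genes. Groups and replicate numbers come from the sample titles and genotype, and the titles name separate mice.

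Genotypes were compared in R 4.3.3 by lmFit and eBayes of limma 3.58.1 (default prior, two-sided, no covariates), with Benjamini-Hochberg adjustment over all genes and a threshold of 0.05. Exact permutation tests used the 15 splits of the arrays. P-values for gaps between enzymes were adjusted over 5 pairs. The rule for naming took Pcyt2, the 10 members and any measured gene of the neighbour lists. The members and lists were chosen with earlier results of these data known. The steps were tested on simulated data in which some genes with a mean above 5 were changed by known amounts. At the threshold used, 5.6% of changes of 0.1 log2 units were recovered and 35.2% of changes of 0.25. For changes of 0.5 and 1 the shares were 64.8% and 91.2%. Most changes of 0.25 or less were therefore missed, and dimmer genes were not changed. Settings tried besides were array weights, a replicate block, median centring, quantile normalization, every row or their mean per gene, a filter on dim genes, a prior that was trended and robust, an unmoderated statistic, subtraction of the array median on the linear scale (floored at 1/8 of that median, for genes with a mean above 4.6) and leaving out each array. Where 1 wild type array is left, its spread is taken to equal that of Pcyt2+/-. In the replicate block, Pcyt2+/- replicates 1 and 2 have no wild type array of their number and do not enter the difference. Precision is limited by how many arrays there were. Tables and plots used matplotlib 3.10.9, numpy 2.4.6, pandas 2.3.3 and Python 3.11.15.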

Additional observations from a re-analysis of the deposited data

Results flagged for a closer look

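In the Pcyt2+/- group of 4 arrays, 3 of 45 sets of values (the 10 members, 29 neighbours, Pcyt2 and 5 gaps between paired enzymes) had 1 array far from the others, by Dixon's test at the 95% level, where about 1 in 20 groups is marked without any cause. The gap of Bckdhb over Bckdha was -0.306 in Pcyt2+/- replicate 3 and between -0.348 and -0.345 in the other Pcyt2+/- livers. Klf15 was 4.892 in Pcyt2+/- replicate 4 and between 4.858 and 4.862 in the others. Aadat was 5.271 in Pcyt2+/- replicate 4 and between 5.022 and 5.050 in the others.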

How the results depend on the processing

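No member was called in any of the 16 other settings. Over the array, limma called 3 genes among those with a mean above 5, 9 with a trended and robust prior, 2 with a replicate block, 3 with the array median subtracted and 0 to 9 with 1 array left out (9 without wild type replicate 3). A lower mean held for 3 of the 3 members with a mean above 5, for 9 of 10 with the replicate block and for 4 to 8 of 10 with 1 array left out. Of those 3, Aass passed a mean of 5 through its wild type values. The replicate block compares only arrays numbered 3 and 4, as numbers 1 and 2 had no wild type array. The members' median was -0.087 above a mean of 5, -0.13 with the array median subtracted (6 members), -0.030 with the replicate block and -0.026 to 0.00098 with 1 array left out (0.00098 without wild type replicate 4). That of the neighbours was -0.071 above a mean of 5, -0.20 with the array median subtracted, -0.0082 after quantile normalization and -0.022 to -0.015 with 1 array left out. The gap of Dbt over Bckdhb ranged from -0.026 to 0.0046 with 1 array left out. Same-numbered arrays correlated in their deviations at 0.147 (number 3) and 0.072 (number 4) across genes, which are not independent replicates. Pcyt2+/- replicate 1 and wild type replicate 4, with unlike numbers, correlated at 0.19. With 2 wild type arrays their deviations mirror each other, so these values cannot tell whether the numbers mark pairs. The labels do not state pairs, and the titles' numbers were not taken as such. With the replicate block the sign turned for Bckdhb (-0.00098), Dbt (-0.013), Mmab (0.0054) and Slc25a21 (0.0059), and the difference was -0.22 for Hibadh and Hsd17b10, -0.15 for Mcee, -0.12 for Gcdh, -0.098 for Aldh6a1, -0.071 for Dhtkd1, -0.056 for Mmachc, -0.054 for Btd and -0.017 for Mccc2. It turned for Ivd after quantile normalization (0.0073), for Hibch after median centring (0.00049), and for Bckdk and Crym with array weights (-0.00046 and -0.00038). With 1 array left out, the difference of 20 of the 39 genes turned sign in some fit, ranging from -0.0094 to 0.014 for Dbt, -0.02 to 0.0091 for Ivd, -0.0072 to 0.0046 for Hibch, -0.12 to 0.016 for Aldh6a1, -0.0029 to 0.0091 for Pcca, -0.034 to 0.0022 for Bcat1, -0.0085 to 0.017 for Bcat2, -0.015 to 0.016 for Bckdk, -0.0078 to 0.0039 for Dld, -0.0073 to 0.023 for Acadsb, -0.015 to 0.0051 for Acad8, -0.014 to 0.00098 for Echs1, -0.023 to 0.0066 for Slc25a44, -0.15 to 0.0083 for Mcee, -0.045 to 0.0022 for Mmut, -0.025 to 0.0011 for Mmaa, -0.014 to 0.0031 for Mmab, -0.081 to 0.095 for Aadat, -0.011 to 0.0036 for Slc25a21 and -0.017 to 0.024 for Crym. The causes were not tested. For 31 of 39 genes the difference was over 1.5 times smaller, or turned, without some 1 array. Signal over background was not measured here.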
